A study of Mus musculus with 4 samples.

Results

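The constitutive proteasome was examined in heart muscle cells (cardiomyocytes), obtained by Langendorff perfusion of the hearts of mice labelled with the genotype MHC, which the labels do not spell out, or with the genotype RbFox2, the Rbfox2 OE group, which overexpressed RBFOX2. RBFOX2 is an RNA-binding regulator of alternative splicing, and the series concerns its non-muscle isoform in the conduction defects of myotonic dystrophy. All mice were of the C57BL x FVB strain background and received doxycycline in the diet for 3 days. The MHC and the Rbfox2 OE group each comprised 2 libraries of polyadenylated RNA, labelled I and II. The labels name neither the promoter that drives the Rbfox2 transgene nor the number, sex or age of the mice. The members were all genes whose symbol begins with Psma, Psmb, Psmc or Psmd followed by a number, without the immunoproteasome genes Psmb8, Psmb9 and Psmb10 and without names marked -ps. This gave 37 genes among the 48432 rows of the table. Of these, 31 encode integral subunits of the particle, and the other 6 are assembly chaperones, tissue-restricted subunits or a gene that shares only the name.

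The proteasome degrades proteins that have been tagged with ubiquitin. Its 20S core is a barrel of outer alpha rings, which gate the entrance, and inner beta rings, which hold the proteolytic sites. The 19S cap consists of a base, in which a ring of ATPases unfolds the substrate, and a lid, which removes the ubiquitin chain. In the heart the proteasome takes part in the turnover of sarcomere proteins and of damaged proteins, and the transcripts of its subunits are known to be induced together, through the factor encoded by Nfe2l1, when proteasome capacity is limiting.

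Each gene had 1 FPKM value per group (fragments per kilobase of transcript, scaled by the mapped fragments of the library), with bounds on both sides. Values of single libraries were not used here, as the table pools them, so the spread between replicates is unknown and the groups could not be tested against each other. What confidence the bounds stand for is not given in the sources used here, and the depth in reads is unknown. Below, each value is a pooled group FPKM followed by the authors' bounds, and a member is called higher or lower where the bounds of the groups lie apart. Ratios are Rbfox2 OE over MHC, and log2 ratios were taken after adding 1 FPKM to each value, which understates the difference of low genes. Rbfox2 itself stood at 14.7 FPKM in MHC and 293 FPKM in Rbfox2 OE. All 37 members had the status OK in both groups.

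Transcripts of cardiomyocytes and of other heart cells differed between the preparations. Of 10 cardiomyocyte markers, Myh6 and Mb were listed at 0 in both groups without an estimate, and all 8 others had a log2 ratio below 0, with a median of -1.10. Their summed level was 57399 FPKM in MHC and 34026 FPKM in Rbfox2 OE. The summed level of 8 macrophage and leukocyte markers was 109 FPKM in MHC and 376 FPKM in Rbfox2 OE. For 8 fibroblast markers the sums were 213 and 504 FPKM, for 8 endothelial markers 230 and 392 FPKM, for 8 smooth muscle and pericyte markers 852 and 1169 FPKM, and for 5 red blood cell markers 56.6 and 295 FPKM. Des, which is not specific to smooth muscle and pericytes, alone made up 711 and 848 FPKM of their sums. All genes of these other lists had a log2 ratio above 0, and none was listed at 0. In such bulk preparations a different number of cells of a type and a different amount of RNA per cell cannot be told apart, and the part of other cells in the proteasome values was not tested.

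Most proteasome subunits had a log2 ratio above 0, mostly with overlapping bounds, and the differences were largest in the 19S cap. Of the 37 members, 35 averaged 1 FPKM or more across the groups, and 30 of these had a log2 ratio above 0, where 46.2% of the 11697 genes compared did. The median log2 ratio of the 35 was 0.51, against -0.06 for all genes compared. The bounds lay apart for 7 members. Psmc1, Psmc2, Psmc6, Psmd2, Psmd7 and Psmd11 were higher in Rbfox2 OE, which is 6 of 35 members beside 6.67% of all genes, and Psmd1 was lower, beside 9.33% of all genes. At 2-fold, 5 members were higher, beside 6.97% of all genes, and 1 was lower, beside 10%. At 1.5-fold, 14 members were higher, beside 16.6% of all genes, and 1 was lower, beside 22.1%. Among the 3113 genes averaging 20 FPKM or more, a minimum that all 31 integral subunits pass, 39.6% had a log2 ratio above 0 and 5.72% were higher with bounds apart. These counts have no test, since subunits of one particle are not replicates of a condition.

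**Figure D1:**
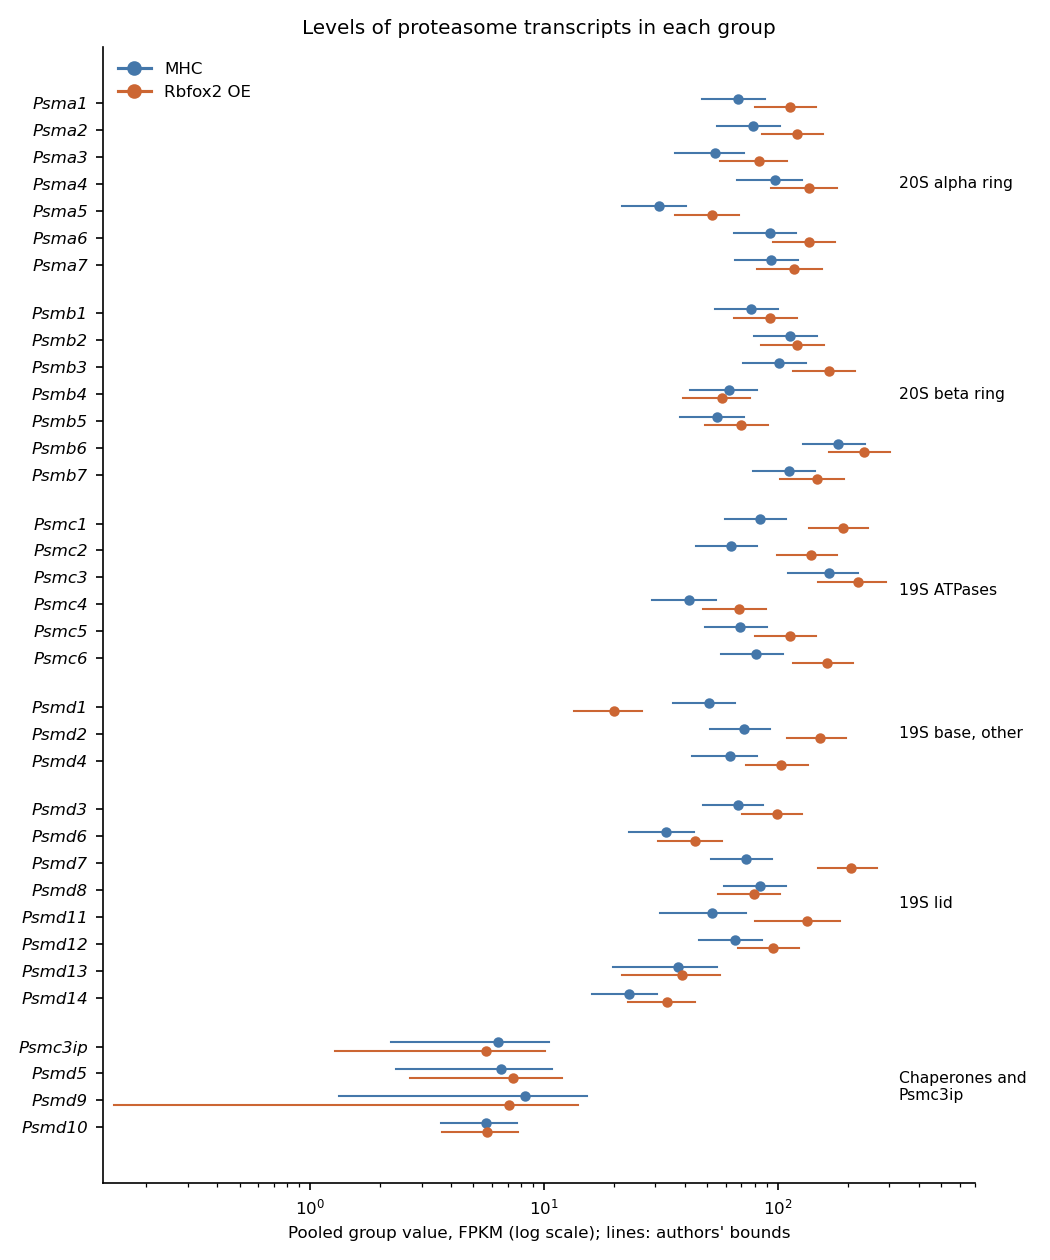
Pooled FPKM (log axis) of the 35 proteasome genes averaging 1 FPKM or more, MHC in blue and Rbfox2 OE in orange, with lines spanning the authors' bounds. The lines of the groups are apart for Psmc1, Psmc2, Psmc6, Psmd2, Psmd7 and Psmd11, which are higher in Rbfox2 OE, and for Psmd1, which is lower.

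The scale of the groups bears on the direction of small differences. When the values were rescaled without mitochondrial genes and the most abundant genes, Rbfox2 OE shifted upward by 0.15 on the log2 scale. Over all genes, lower ones then made up 46.5% of the 2-fold differences in place of 59.0%. For the proteasome the rescaled median was 0.66 against 0.07 for all genes, and 32 of 35 members lay above 0, beside 54.6% of all genes compared. With bounds apart, 7 members were higher, and the share of all genes was not counted on this scale. Psmb4 and Psmd8 changed sign on rescaling, so no direction is given for either.

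The 7 alpha subunits of the core all had higher values in Rbfox2 OE, over a narrow range of log2 ratios from 0.33 to 0.73. Their bounds overlapped between the groups in every case. Psma5 had the largest log2 ratio of the ring, at 31.0 FPKM in MHC (bounds 21.5 to 40.5) against 52.3 FPKM in Rbfox2 OE (bounds 36.4 to 68.1). Psma1 stood at 68.0 FPKM (bounds 47.4 to 88.5) against 113 FPKM (bounds 79.6 to 146). Psma3 stood at 54.2 FPKM (bounds 36.4 to 71.9) against 83.0 FPKM (bounds 56.5 to 110). Psma2, Psma4 and Psma6 had ratios of 1.54, 1.40 and 1.46. Psma7 was the nearest to equality, at 93.9 FPKM (bounds 65.6 to 122) against 118 FPKM (bounds 81.6 to 154). Summed over the ring, the alpha transcripts amounted to 515 FPKM in MHC and 759 FPKM in Rbfox2 OE, a ratio of 1.47.

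The beta ring differed less. Its 7 transcripts summed to 702 FPKM in MHC and 888 FPKM in Rbfox2 OE, a ratio of 1.27, and again none had bounds apart. The proteolytic subunits lay close to one another. Psmb6 encodes the caspase-like subunit, and its transcript was the most abundant of the integral subunits in both groups. It stood at 182 FPKM (bounds 128 to 236) against 234 FPKM (bounds 166 to 303). Psmb5, the chymotrypsin-like subunit, stood at 55.0 FPKM (bounds 38.1 to 71.9) against 69.9 FPKM (bounds 48.7 to 91.1). Psmb7, the trypsin-like subunit, stood at 111 FPKM (bounds 78.1 to 144) against 147 FPKM (bounds 103 to 192). The log2 ratios of these 3 genes spanned 0.34 to 0.40. The beta subunits without a proteolytic site were more scattered. Psmb3 had a log2 ratio of 0.70, at 102 FPKM against 165 FPKM, while Psmb1 and Psmb2 had log2 ratios of 0.27 and 0.10. Psmb4 was nearly level, at 61.8 FPKM (bounds 42.3 to 81.3) against 57.9 FPKM (bounds 39.5 to 76.3).

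The ATPase ring of the 19S base showed larger differences. All 6 ATPase genes had higher values in Rbfox2 OE, with a median log2 ratio of 0.85, and 3 had bounds apart. Psmc1 (ENSMUSG00000021178, GRCm38 chromosome 12, 100110154 to 100123405, protein-coding) stood at 83.8 FPKM in MHC (bounds 59.2 to 108) against 190 FPKM in Rbfox2 OE (bounds 136 to 244), and the ratio was 2.26. Psmc2 (chromosome 5, 21785283 to 21803787), its neighbour in the ring, stood at 63.2 FPKM (bounds 44.7 to 81.7) and 139 FPKM (bounds 99.3 to 179), and the ratio was 2.2. Psmc6 (chromosome 14, 45329788 to 45349705) stood at 81.1 FPKM (bounds 57.2 to 105) and 163 FPKM (bounds 116 to 210), and the ratio was 2.01. In these 3 genes the lower bound of Rbfox2 OE lay above the upper bound of MHC. With 1 FPKM added, the log2 ratio of Psmc6 was 0.9997, just short of the 2-fold threshold. Psmc4 and Psmc5 had the same ratio to within 0.01, at 1.64 and 1.63, with overlapping bounds. Psmc3, the most abundant of the ATPase transcripts, stood at 165 FPKM (bounds 110 to 220) and 220 FPKM (bounds 149 to 291), and the ratio was 1.33.

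The large scaffold subunits of the base differed in opposite directions. Psmd2 (ENSMUSG00000006998, chromosome 16, 20651652 to 20663414, protein-coding), a docking site for ubiquitin and shuttle proteins, stood at 71.9 FPKM in MHC (bounds 51.4 to 92.5) against 152 FPKM in Rbfox2 OE (bounds 109 to 195). Psmd1 (ENSMUSG00000026229, chromosome 1, 86064387 to 86139151, protein-coding), the scaffold that holds the ubiquitin receptor encoded by Adrm1, stood at 50.8 FPKM in MHC (bounds 35.7 to 65.9) against 19.9 FPKM in Rbfox2 OE (bounds 13.5 to 26.3). Psmd2 was thus 2.12-fold higher and Psmd1 2.55-fold lower, and for each the bounds of the groups were apart. The level of Psmd2 was 1.42 times that of Psmd1 in MHC and 7.66 times in Rbfox2 OE. Psmd1 had a log2 ratio of -1.31 and lay at percentile 5.41 of all genes compared, just inside the range of -1.35 to 1.17 that holds the middle 90% of them. Among the 31 integral subunits of the name rule, the next lowest log2 ratio was -0.09, for Psmb4. Adrm1, which the name rule leaves out, had a log2 ratio of -0.19. Psmd4, a ubiquitin receptor of the base, followed the majority, at 62.4 FPKM (bounds 43.1 to 81.6) against 104 FPKM (bounds 72.9 to 135).

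The 8 lid genes had log2 ratios from -0.08 to 1.48. Psmd7 (ENSMUSG00000039067, chromosome 8, 107580381 to 107588464, protein-coding), the catalytically inactive partner of the deubiquitinase Psmd14, had the largest log2 ratio of all members. It stood at 73.4 FPKM in MHC (bounds 51.9 to 94.9) against 206 FPKM in Rbfox2 OE (bounds 148 to 265), and the ratio was 2.81, and lay at percentile 97.1 of all genes compared. Psmd14 stood at 23.2 FPKM (bounds 16 to 30.4) and 33.6 FPKM (bounds 22.9 to 44.4). The level of Psmd7 was 3.16 times that of Psmd14 in MHC and 6.14 times in Rbfox2 OE. Psmd11 (ENSMUSG00000017428, chromosome 11, 80428615 to 80473248, protein-coding), a lid subunit that contacts both the base and the core, stood at 52.3 FPKM (bounds 31.4 to 73.1) and 133 FPKM (bounds 80.3 to 185), and the ratio was 2.54. Psmd3, Psmd6 and Psmd12, which belong to the same horseshoe of scaffold proteins in the lid, had ratios of 1.47, 1.32 and 1.45 with overlapping bounds. Psmd8 and Psmd13 were close to equal, at 83.7 against 79.1 FPKM and at 37.5 against 39.1 FPKM.

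**Figure D2:**
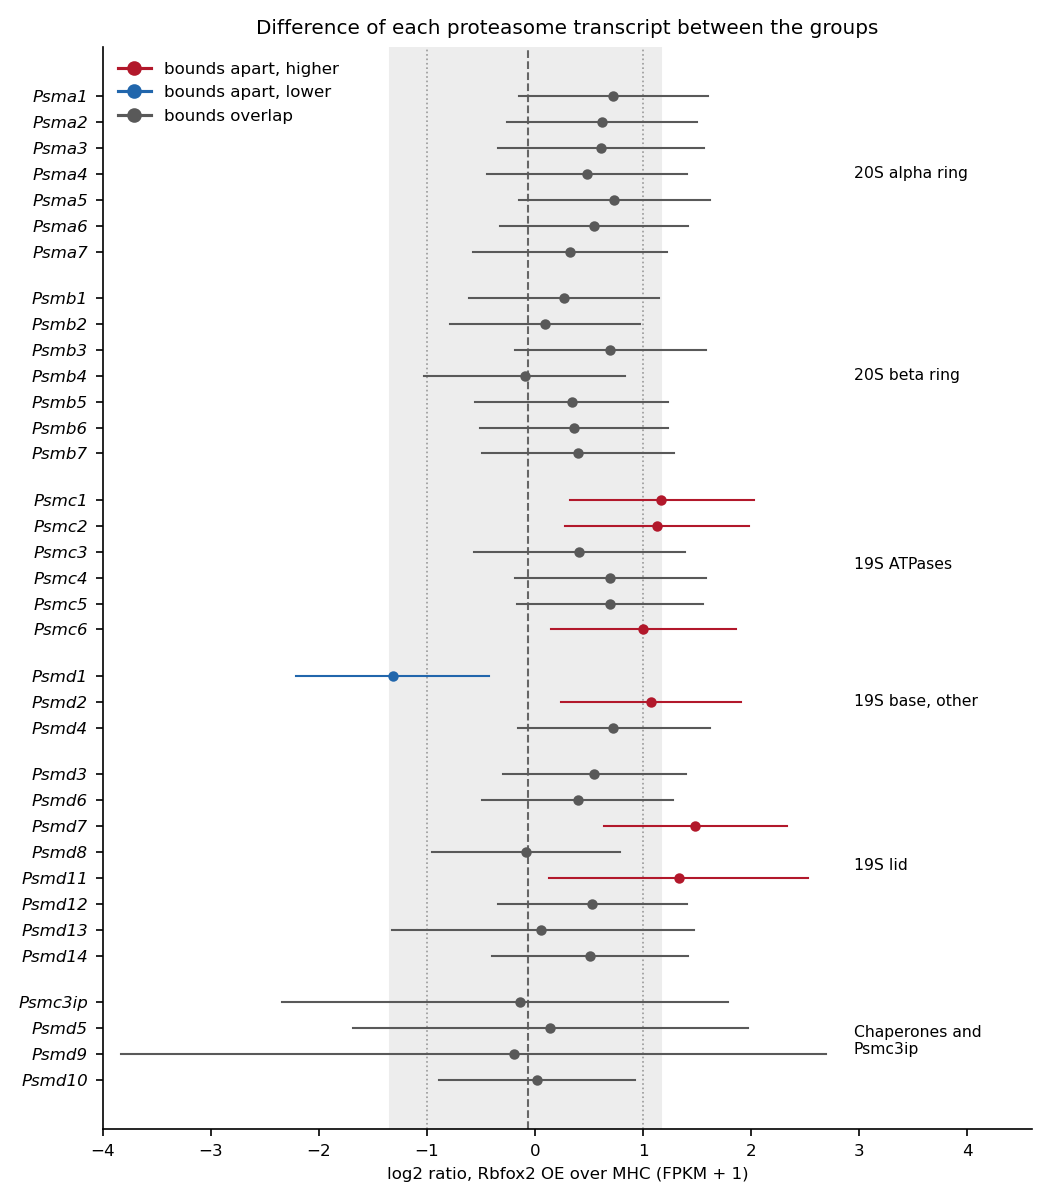
Log2 ratio (Rbfox2 OE over MHC, 1 FPKM added) of each of the 35 genes, with lines from the nearest to the farthest pair of bounds, dotted lines at 2-fold, a dashed line at the all-gene median of -0.06 and a grey band over the middle 90% of all genes (-1.35 to 1.17). The 6 higher genes with bounds apart are all cap genes, and Psmd1 is alone on the lower side.

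By sub-complex, the 14 core subunits had a median log2 ratio of 0.44. Bounds lay apart for 0 of these 14, beside 6.67% of all genes higher and 9.33% lower. The 17 cap subunits among the members had a median of 0.70. Of these 17, 6 were higher with bounds apart, beside 6.67% of all genes, and 1, Psmd1, was lower, beside 9.33%. The difference between core and cap was not tested. Log2 ratios spread from -0.09 to 0.73 in the core and from -1.31 to 1.48 in the cap, so that the cap held the largest differences in both directions.

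**Figure D3:**
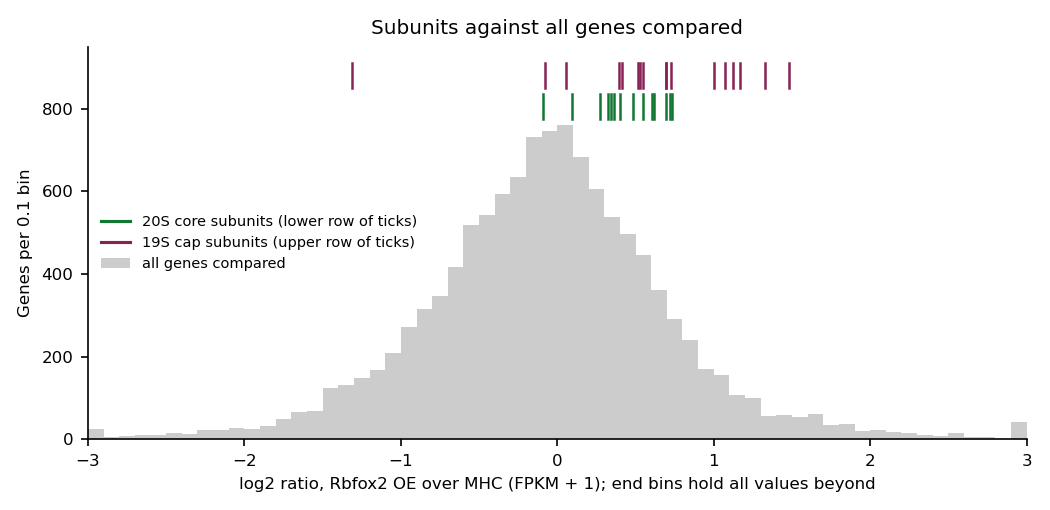
Histogram of the log2 ratios of the 11697 genes compared (bins of 0.1), with ticks for the 14 core and the 17 cap subunits. All but Psmb4, Psmd8 and Psmd1 lie to the right of 0, and the cap ticks reach from -1.31 to 1.48.

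The remaining members lay apart from the particle in level and showed little difference. Psmd5, Psmd9 and Psmd10 encode chaperones that guide assembly of the base and leave before it is complete. They stood at 5.64 to 8.29 FPKM in MHC and 5.72 to 7.35 FPKM in Rbfox2 OE, below every integral subunit, and their log2 ratios ran from -0.20 to 0.14. Psmc3ip, which encodes a meiotic recombination factor and not a subunit, stood at 6.36 FPKM in MHC and 5.69 FPKM in Rbfox2 OE. The testis-type alpha subunit Psma8 stood at 0.413 and 0.280 FPKM, and the thymus-type beta subunit Psmb11 was listed at 0 in both groups. Neither reached a mean of 1 FPKM. The 4 rows named as pseudogenes of Psmb5, Psmb6 and Psmb7 were listed at 0 in both groups.

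Although the particle holds its subunits in fixed proportion, their transcripts did not stand at equal levels in either group. FPKM is scaled by transcript length, so levels of different genes can be set side by side. Overlapping genes and the unstated annotation and use of strand limit such a comparison. In MHC the 31 integral subunits ran from 23.2 FPKM (Psmd14) to 182 FPKM (Psmb6), a 7.83-fold range, with a coefficient of variation of 45.8%. In Rbfox2 OE they ran from 19.9 FPKM (Psmd1) to 234 FPKM (Psmb6), an 11.8-fold range, with a coefficient of variation of 47.8%. The order was largely shared, with a Spearman's rho of 0.79 between the groups over these 31 genes, given as a description since all values of a group share the same libraries. Psmb6 and Psmc3 were the first and second in both groups. Psmd7 moved from rank 14 to rank 3, Psmc1 from 9 to 4 and Psmd11 from 25 to 12. Psmb2 moved from rank 3 to rank 14, Psmd8 from 10 to 23 and Psmd1 from 26 to 31, the lowest. Together the 31 transcripts summed to 2343 FPKM in MHC and 3546 FPKM in Rbfox2 OE, which was 0.457% and 0.794% of all FPKM in the table. Those shares leave out the cardiac transcripts listed at 0.

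The other genes of the pathway were centred near the median of all genes. Of 46 listed genes averaging 1 FPKM or more, 22 had a log2 ratio above 0 and 24 below, with a median of -0.07. With bounds apart, 0 were higher, beside 6.67% of all genes, and 3 were lower, beside 9.33% of all genes, so the lower count is no larger a share than the background. These 3 were Psme4, Ube3c and Ubb. Psme4, which encodes the single-chain activator that caps the core in place of the 19S cap, stood at 43.1 FPKM (bounds 29.8 to 56.4) in MHC and 19.7 FPKM (bounds 12.4 to 27.1) in Rbfox2 OE. Ube3c, a ubiquitin ligase bound to the proteasome, stood at 13.8 FPKM (bounds 9.08 to 18.6) and 6.43 FPKM (bounds 4.25 to 8.61). Ubb, a polyubiquitin gene, stood at 228 FPKM (bounds 163 to 293) and 118 FPKM (bounds 83.5 to 152).

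Among the alternative caps and the inhibitor, 6 genes had a median log2 ratio of 0.03. Psme1, which with Psme2 forms the interferon-inducible activator ring, stood at 114 FPKM (bounds 77.1 to 150) in MHC and 58.9 FPKM (bounds 38.7 to 79.0) in Rbfox2 OE, with bounds that overlapped narrowly, while Psme2 stood at 41.6 and 44.9 FPKM. The immunoproteasome subunits, which replace the proteolytic beta subunits in immune cells and after interferon, differed among themselves. Psmb8 stood at 14.1 FPKM (bounds 4.73 to 23.4) and 30.6 FPKM (bounds 12.6 to 48.6), Psmb9 at 4.89 and 8.01 FPKM, and Psmb10 at 27.8 and 21.7 FPKM, all with overlapping bounds. In both groups each lay below the constitutive subunit that it replaces (Psmb5, Psmb6 and Psmb7).

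The 5 chaperones of core assembly had a median log2 ratio of -0.18, and 4 of them lay below 0, where 6289 of the 11697 genes compared did. The bounds of all 5 overlapped between the groups. The 7 genes for cap subunits and partners that carry other names had a median of -0.19. The ubiquitin receptor gene Adrm1 stood at 46.4 and 40.6 FPKM, and Shfm1, which encodes the smallest lid subunit, at 76.1 and 77.3 FPKM. AI314180, which encodes a large proteasome adaptor and scaffold, had a log2 ratio of -1.08, at 33.6 FPKM (bounds 18.1 to 49.1) and 15.4 FPKM (bounds 9.01 to 21.8), with overlapping bounds. The regulators of proteasome genes had a median of 0.07. Nfe2l1 stood at 430 FPKM (bounds 221 to 639) in MHC and 258 FPKM (bounds 136 to 381) in Rbfox2 OE, and its relative Nfe2l2 at 41.8 and 59.1 FPKM, both with overlapping bounds.

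Genes that make and deliver ubiquitin had medians near that of all genes, -0.04 for 8 ubiquitin, E1 and E2 genes and 0.05 for 11 genes of the p97 segregase and the shuttle factors. Rad23b, a shuttle factor that carries ubiquitinated proteins to the cap, stood at 82.4 FPKM (bounds 47.9 to 117) and 125 FPKM (bounds 73.7 to 175), with overlapping bounds. Nsfl1c, a cofactor of p97, stood at 65.7 and 43.4 FPKM with overlapping bounds, and Vcp, p97 itself, at 117 and 120 FPKM.

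**Figure D4:**
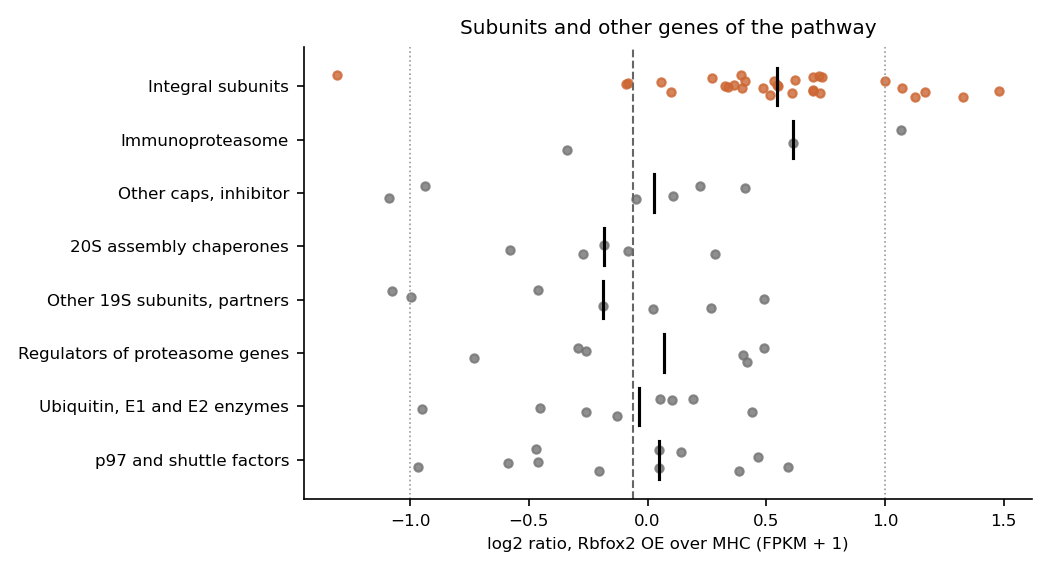
Log2 ratio (Rbfox2 OE over MHC, 1 FPKM added) of each gene by list, with a black bar at each median, dotted lines at 2-fold and a dashed line at the all-gene median; vertical scatter within a row carries no value. The integral subunits have a median of 0.55, and the lists other than the immunoproteasome, with its 3 genes, have medians between -0.19 and 0.07.

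Position and structure of the genes were compared next, since the rule did not use them. The 31 integral subunits are spread over many chromosomes, with spans from 2.49 kb (Psmb6) to 88.7 kb (Psmd14) and a median of 13.3 kb. Over these genes the log2 ratio was only weakly related to span (Spearman's rho 0.10) and to the level in MHC (rho -0.09). Psmd1 spans 74.8 kb and Psmd14 88.7 kb, and their log2 ratios were -1.31 and 0.51. Among all genes compared, the median log2 ratio was 0.04 for 2990 genes spanning less than 10 kb. It was -0.12 for 1627 genes spanning 50 to 100 kb and -0.30 for 1447 genes spanning 100 kb or more. A part of span in the value of any single gene was not tested. The lower pathway genes Psme4 and Ube3c span 109 and 107 kb, and the lower Ubb 2.04 kb.

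Overlapping genes limit some values, because fragments can be assigned to a neighbour. Of the 31 integral subunits, 14 share sequence positions with another annotated gene, and for 11 of them such a gene lies on the opposite strand. Psmc1, Psmc2, Psmc6, Psmd2, Psmd7 and Psmd11 overlap none. Psmd1 overlaps 4 annotated genes, and the highest value among these was 0.136 FPKM, for Htr2b in Rbfox2 OE. The table places Psmd1 on a locus with 6 other genes. For Psmd13 the neighbour on the opposite strand, Sirt3, stood at 36.5 FPKM in MHC and 26.4 FPKM in Rbfox2 OE, close to Psmd13 in MHC and below it in Rbfox2 OE.

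Promoter windows were searched because 6 cap members were higher together. RefSeq promoter windows on GRCm38.p6, each of 300 bases from 250 before to 50 after the annotated start, were found for 25 of the 31 integral subunits. Psmd7 was among the 6 without an entry. The motifs searched, on both strands, were the antioxidant response element core TGACNNNGC, to which the products of Nfe2l1 and Nfe2l2 bind, the CCAAT box CCAAT, the nuclear respiratory factor palindrome, and the ETS site CCGGAAG; none of these contains another. The antioxidant response element core was found in 4 of 25 subunits, in Psmb5, Psmb6, Psmc6 and Psmd12, and in 17.1% of the 8750 genes compared that had an entry. The CCAAT box was found in 10 of 25 and in 42.3% of those genes, and the nuclear respiratory factor site in 1 of 25, Psma2, and in 2.34%.

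The ETS site was found in 10 of 25 subunits and in 20.4% of the genes compared with an entry. All 5 subunits with an entry that were higher with bounds apart hold it, and they are shown here because they are the members on which the cap result rests. Each line gives 30 bases 5′ to 3′ on the strand of the gene, with the ETS letters, or their reverse complement CTTCCGG, in capitals.
Psmc1, chr12:100110163-100110192, plus strand: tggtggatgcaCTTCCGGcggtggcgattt
Psmc2, chr5:21785180-21785209, plus strand: accagtgagcaCTTCCGGgatggggctcgc
Psmc6, chr14:45329713-45329742, plus strand: aggcgggccagCCGGAAGgggcggagccag
Psmd2, chr16:20651615-20651644, plus strand: tccgcagggcgCTTCCGGtctggaggacaa
Psmd11, chr11:80428593-80428622, plus strand: cgagggcgggtCTTCCGGgtgtgtgtttcc

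In these windows the first base of the motif lay 28, 84, 100, 26 and 11 bases before the RefSeq start of Psmc1, Psmc2, Psmc6, Psmd2 and Psmd11. The GENCODE coordinates given above for Psmc1 begin upstream of its RefSeq start, so by them its motif lies inside the gene. Another window of Psmc2, at a different start, held a match 24 bases before that start. The other 5 subunits with the motif were Psma6, Psmd4, Psmd6, Psmd12 and Psmd13, whose log2 ratios ran from 0.06 to 0.73. The 10 subunits with the motif had a median log2 ratio of 0.86, and the 15 without it a median of 0.51 and a highest value of 0.73. The same split was made for all 4 motifs, and that by the ETS site was the widest. Medians with and without the CCAAT box were 0.66 and 0.49, those with and without the antioxidant response element core were 0.45 and 0.62, and the single subunit with the nuclear respiratory factor palindrome had 0.62 against 0.58 for the others. Psmd1 has no match in its window. Except for Psma6, the subunits with the ETS motif are cap genes, while most of those without it are core genes. The split by the ETS motif therefore overlaps that of core and cap, and the part of each was not separated. Over all genes compared the motif did not go with higher values. The median log2 ratio was -0.10 for 1783 genes with it and -0.06 for 6967 without, and 2.52% and 7.39% of these were higher with bounds apart. A match is a run of letters and not a measured binding site, and the relation within the subunits was seen after the values were known and has no test.

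**Figure D5:**
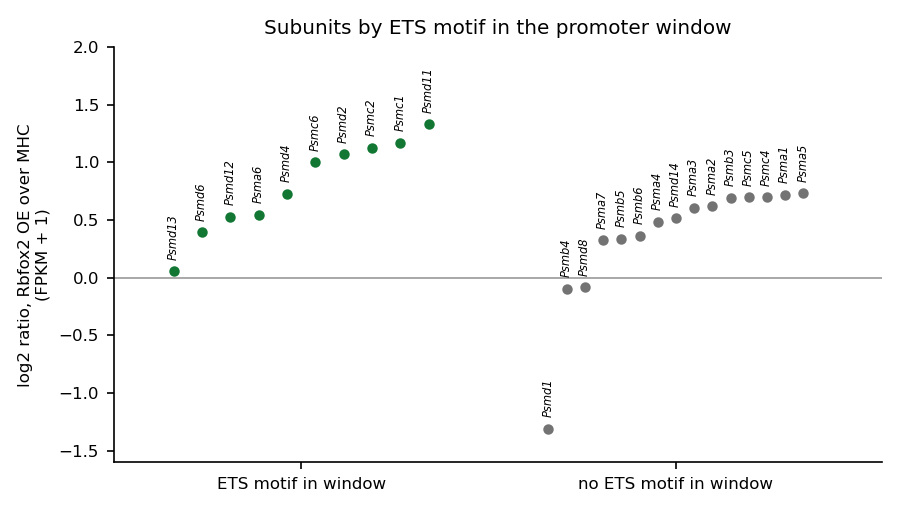
Log2 ratio (Rbfox2 OE over MHC, 1 FPKM added) of the 25 integral subunits with a promoter entry, split by whether the window holds the ETS motif; horizontal position within a column only orders the genes. The 5 genes near or above 1 (Psmc6, Psmd2, Psmc2, Psmc1 and Psmd11) are all in the column with the motif, and Psmd1 is in the column without it.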

How the data were processed

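Polyadenylated RNA of 4 cardiomyocyte preparations (2 MHC, 2 Rbfox2 OE) was sequenced from stranded libraries on a HiSeq4000, per the labels' protocols. FPKM values were deposited by the authors in a Cuffdiff gene table with 1 value per group; the other deposited columns used are the bounds of these values, also in FPKM. The submitters' processing notes name STAR 2.4.2a, HTSeq, DESeq2 and Cuffdiff 2.2.1 and the builds GRCm38 and mm10; the annotation, the normalization mode, the use of strand and the level of the bounds are not given in the sources used here. A replicate spread, a depth and a p-value could not be had.

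Rows sharing a symbol (110 symbols) were summed. Log2 ratios were computed with Python 3.11.15 and pandas 2.3.3 after adding 1 FPKM, for genes averaging 1 FPKM or more. Calls were a 2-fold or 1.5-fold difference, or separate bounds, and were counted over all 11697 genes. The calculation was run on simulated data with planted changes larger than any seen in the members, so the run does not bear on differences of their size. Coordinates and overlaps were taken from GENCODE M21 (GRCm38), which held 48053 of the 48432 identifiers, and promoters from RefSeq. The members, the pathway lists and the marker lists were chosen with earlier results of these data known. All members are accounted for; pathway genes were named where bounds were apart or the difference reached 1.5-fold, with the immunoproteasome genes and a few others given for their role. A gene that this rule chose is not reported here. Per-library columns left unused numbered 0. Alternatives covered the pseudocount, the filter, the threshold, 2 scalings and the choice of members.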

Additional observations from a re-analysis of the deposited data

How the results depend on the processing

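No paired analysis was possible because values are pooled within each group; for the same reason no library could be left out. Depth is unknown and limits the low members most. The median log2 ratio of the members, 0.51, lay between 0.47 and 0.70 under its 11 alternatives. The lowest came from averaging the members instead of taking the median, and the highest from members alone on their locus. The range that the bounds allow, -0.40 to 1.47, includes 0, so lying inside it says little about direction. Requiring the status OK or a mean of 5 FPKM removed no compared member, so these settings could not change the median. The number of members higher at 2-fold, 5, was 5 or 6 under its alternatives other than the 1.5-fold threshold, which gave 14, and the number lower was 1 under each. Over all genes, a pseudocount of 5 FPKM gave 304 higher and 559 lower at 2-fold in place of 815 and 1172. Of the single members, Psmb4 and Psmd8 changed sign, to 0.06 and 0.07 on rescaling, and the other values kept their sign under the pseudocounts and scalings tried. The background of genes averaging 20 FPKM or more, the median without Psmd1 (0.55) and the split by promoter motif were chosen after seeing the data.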
